A study of Carassius auratus with 5 samples.

Results

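Beta actin and the other cytoplasmic actins were represented by 14 of the 8099 goldfish cDNA clones on the arrays, or by 28 of 16198 clone spots, since each clone was printed on 2 spots. They were taken by name. The members were the clones whose deposited name holds beta actin, beta-actin, bactin or the words actin, cytoplasmic, and muscle actins and actin-binding or actin-related proteins were left out. Of the 14 clones, 9 were named bactin1 (beta actin 1), 2 bactin (beta actin), 2 beta-actin, and 1 Actin, cytoplasmic 1 (Beta-actin-1). The first 2 characters of a clone name give its source plate, and 6 of the clones came from plate 02, 5 from plate 03, 2 from plate 14 and 1 from plate 53.

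Each of 5 two-colour arrays compared telencephalon RNA of its own independent group of sexually mature female goldfish (Carassius auratus), kept in water with the aromatase inhibitor fadrozole at 50 µg/L, with RNA of unexposed fish. The unexposed fish formed 1 common pool that served all 5 arrays, so the spread between arrays leaves out the spread between control fish. Exposed RNA carried Cy3 and pool RNA carried Cy5 on every array, so dye and treatment cannot be told apart. The length of exposure and the number of fish in a group or in the pool are not given in the sources used here. Replicates 1 to 5 are slides 4, 14, 22, 33 and 44. In whole tissue, fewer cells of a type and less RNA per cell cannot be told apart.

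Actin is the subunit of the thin filaments of the cytoskeleton. The cytoplasmic actins, beta actin among them, are made in nearly every cell, and in neurons they build the filaments of growth cones and dendritic spines, while alpha actins form the thin filaments of muscle. Capping proteins, cofilin and the ARP2/3 complex control how filaments grow, branch and are taken apart. Beta actin is also widely used as a reference gene, against which the RNA of other genes is scaled. Actin genes share much of their coding sequence, and which actin transcripts bound to each clone was not tested.

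The beta actin spots were dim to moderately bright. In the control channel the median of the 28 spots was 313, 468, 378, 227 and 485 scanner units on replicates 1 to 5, against a median over all clone spots of 78.7, 88.4, 79.6, 62.9 and 96.4. In the fadrozole channel it was 439, 565, 832, 456 and 237, against 298, 220, 386, 322 and 122. The beta actin median thus lay above that of all clones in both channels of every array. Set against the 95th percentile of the 336 spots printed without DNA, 115 of the 140 control readings of beta actin and 106 of the 140 fadrozole readings were higher. On replicate 4 only 12 of the 28 fadrozole readings were. Both spots exceeded that level on all 5 arrays for 6 of the 14 clones in the control channel and for 3 of 14 in the fadrozole channel. Those 3 were 03o22, 03p22 and 14o09, none of them from plate 02. None of the 28 spots was marked as ignored by the scanner software.

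**Figure D1:**
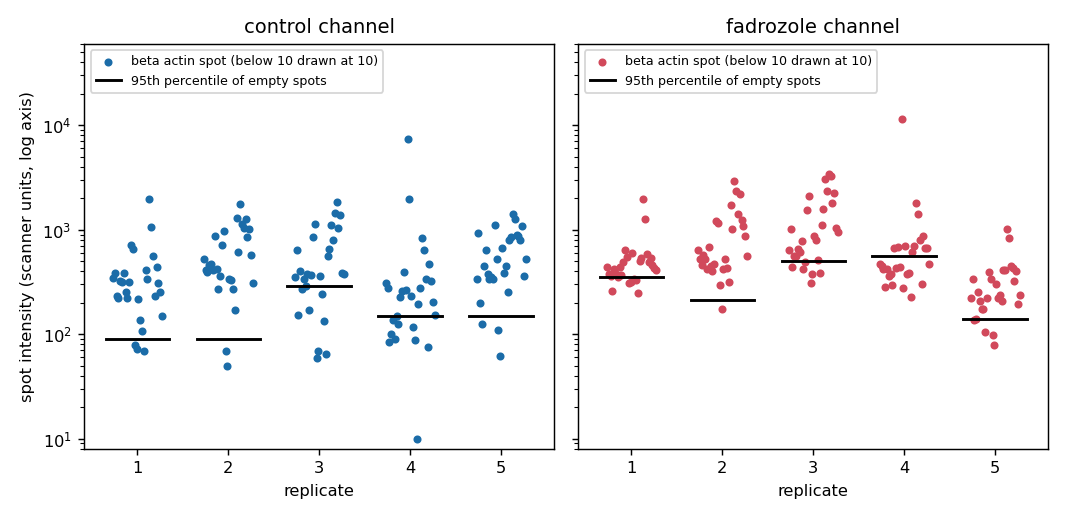
Spot intensity in scanner units on a log axis for the 28 beta actin spots on each of 5 arrays, control channel left and fadrozole channel right, with a bar at the 95th percentile of empty spots. Of the 28 fadrozole readings on replicate 4, 12 lay above the bar, the fewest of any array and channel, where 15.4% of all clone spots did.

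The values below are log2 ratios of fadrozole over control after background correction and loess normalization of each array, averaged over the 2 spots of a clone. They are given as a description of these arrays, because the clones were picked with earlier results of the same ratios known. Calls from the test over all clones are given as counts for the same purpose, and no p-value is given for a beta actin clone. Over the 14 clones the mean was -0.34, -0.20, -0.40, -0.33 and -0.43 on replicates 1 to 5, and its mean over arrays was -0.34 ± 0.09 (SD, n = 5). The median clone stood at -0.42, against 0.00 for all 8078 tested clones, and the median of the 8 clones off plate 02 was -0.17. The means of single clones ran from -0.67 to 0.10, so that 13 of 14 lay below 0 and by very different amounts.

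Of the 70 single values, 54 lay below 0 and 16 above. Of the 14 clones, 6 were below 0 on all 5 arrays, where 7.65% of all tested clones were, and 0 were above 0 on all 5, where 7.14% were. By limma's moderated test across all clones, 3 were called lower, where 1.61% of all tested clones were called lower, and 0 were called higher, where 0.421% were. At an unadjusted p under 0.05 there were 7 lower, where 8.06% of all tested clones were, and 0 higher, where 6.29% were, and 6 of the 7 lay on plate 02, where 64.8% of all clones were lower at that level. All 14 clones passed the filter on dim spots, and the shares beside these counts are printed for reading only, since the clones were picked from this same contrast.

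**Figure D2:**
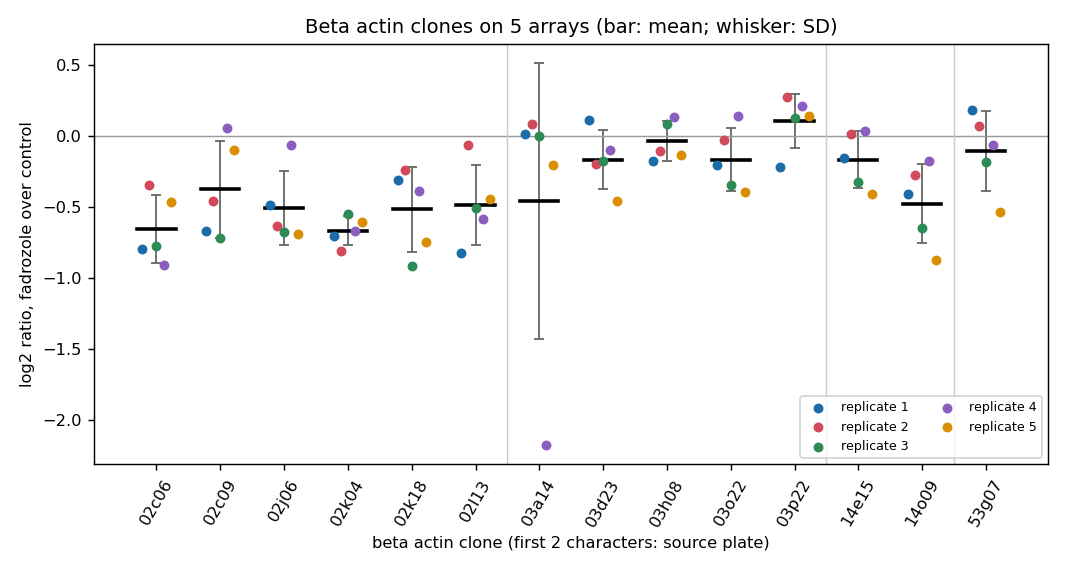
Log2 ratio of fadrozole over control of the 14 beta actin clones on each of 5 arrays, in order of clone name, with the mean as a bar, the SD as a whisker and grey lines between source plates. The 6 clones of plate 02 have means of -0.67 to -0.38 and the 8 others of -0.48 to 0.10, and the lowest point is clone 03a14 on replicate 4 at -2.18.

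The 3 called clones, 02k04, 02c06 and 02j06, were all named bactin1 and all came from plate 02. Clone 02k04 read -0.71, -0.81, -0.55, -0.67 and -0.61 on replicates 1 to 5, with a mean of -0.67 ± 0.10 (SD, n = 5), or 1.59-fold lower. As an average of 2 spots it had the smallest SD of the 14 clones and stayed between -0.81 and -0.55 on all arrays. Its single spots read -1.1 and -0.31 on replicate 1 and -1.01 and -0.61 on replicate 2, and lay closer together on replicates 3 to 5. In the fadrozole channel both of its spots were above the level of empty spots on 3 of 5 arrays. Its mean intensity over both spots was 318, 651, 334, 138 and 356 in the control channel and 398, 564, 691, 338 and 176 in the fadrozole channel. These intensities were higher in the fadrozole channel on 3 arrays. On each array the ratio is relative to the bulk of the clones, whose median was also higher in the fadrozole channel on all arrays.

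Clone 02c06 read -0.80, -0.35, -0.78, -0.91 and -0.47 on replicates 1 to 5, with a mean of -0.66 ± 0.24 (SD, n = 5), or 1.58-fold lower. Clone 02j06 read -0.49, -0.64, -0.68, -0.07 and -0.69, with a mean of -0.51 ± 0.26, and was near 0 on replicate 4 alone. Neither clone crossed 0 on any array. Each had both fadrozole spots above the level of empty spots on 4 of 5 arrays. The filter on dim spots used another level, over 2 SDs above the local background. Both fadrozole spots passed that level on 3 arrays for 02c06 and 02k04 and on 2 for 02j06. The calls of these 3 clones depended on the arrays used and on the processing. With replicate 1, 2 or 3 left out, 0 beta actin clones were called. The same held without background subtraction, in the authors' deposited values, and with each source plate centred on its median. In these settings 0 clones of any gene were called lower, except 1 without replicate 1. Beta actin calls lower were 3 with median centering, 2 with scale normalization, 5 with print-tip loess and up to 6 in other settings.

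The other 3 clones of plate 02 were not called. Clone 02k18, named bactin, read -0.31, -0.24, -0.92, -0.39 and -0.75, with a mean of -0.52 ± 0.30 (SD, n = 5). Clone 02l13, also named bactin, read -0.83, -0.07, -0.51, -0.59 and -0.45, with a mean of -0.49 ± 0.28. Clone 02c09, named bactin1, read -0.67, -0.46, -0.72, 0.05 and -0.10, with a mean of -0.38 ± 0.34. It gave the single value above 0 among the 30 values of plate 02.

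The 5 clones of plate 03 carried the same name, bactin1, and none was called. Clone 03p22, the brightest beta actin clone on replicates 1, 2 and 5 of the control channel, read -0.22, 0.27, 0.12, 0.21 and 0.14, with a mean of 0.10 ± 0.19 (SD, n = 5). It was the one clone with a mean above 0. Its control intensities were 1520, 1450, 958, 736 and 1350 and its fadrozole intensities 1610, 2640, 2680, 1620 and 926, and both of its spots were above the level of empty spots in both channels of every array.

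Clone 03h08 read -0.18, -0.11, 0.08, 0.13 and -0.14, with a mean of -0.04 ± 0.14 (SD, n = 5). Clone 03d23 read 0.11, -0.20, -0.18, -0.10 and -0.46, with a mean of -0.17 ± 0.21. Clone 03o22 read -0.21, -0.03, -0.35, 0.14 and -0.40, with a mean of -0.17 ± 0.22. Each of these 3 clones had values on both sides of 0.

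Clone 03a14 stood apart through 1 spot on 1 array. It read 0.01, 0.08, 0.00, -2.18 and -0.21, with a mean of -0.46 ± 0.97 (SD, n = 5), and over the other 4 arrays its mean was -0.03 ± 0.13 (SD, n = 4). On replicate 4 its first spot read 7430 in the control channel and 11600 in the fadrozole channel, a log2 ratio of -0.03, and its second spot 1970 and 279, a log2 ratio of -4.34. On replicates 1, 2, 3 and 5 the mean of its spots was 59.2 to 85.7 in the control channel, near the median of all clones, so that its brightness on replicate 4 was itself out of range of its other arrays. Results that rest on this clone are therefore given with and without it.

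The 2 beta-actin clones of plate 14 differed. Clone 14o09 read -0.41, -0.28, -0.65, -0.18 and -0.88, with a mean of -0.48 ± 0.28 (SD, n = 5), below 0 on all arrays and not called. Clone 14e15 read -0.16, 0.01, -0.33, 0.03 and -0.41, with a mean of -0.17 ± 0.20. Clone 53g07, named for cytoplasmic actin 1, read 0.18, 0.07, -0.19, -0.07 and -0.54, with a mean of -0.11 ± 0.28. The lowest value of all 3 of these clones was that of replicate 5.

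The 2 spots of a clone measured the same RNA on the same array, and their difference shows the error within an array. Over the 70 pairs of spots the median difference was 0.24 and the largest, that of 03a14 on replicate 4, was 4.31. The sign was the same in 52 pairs, and the spots lay within 0.5 of each other in 56. The median SD of a clone over arrays was 0.25, a spread between arrays of the same order as the difference between spots. The spots of 02k18 were the least alike, with a median difference of 0.70, and those of 03h08 the most alike, with 0.05. Clone 03h08 was dim, with both spots above the level of empty spots on 2 of 5 arrays in each channel. For 02k18 this held on 4 arrays in the control channel and 2 in the fadrozole channel.

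**Figure D3:**
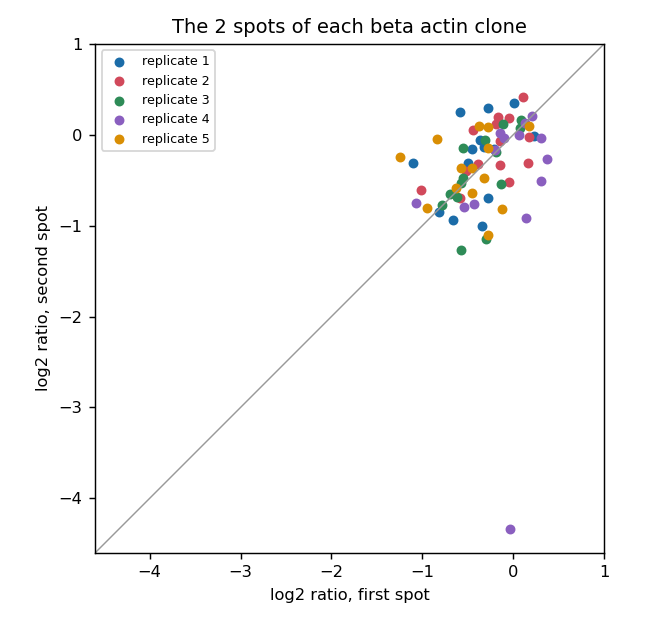
Log2 ratio of fadrozole over control on the first and the second spot of each beta actin clone, 1 point per clone and array, with the line of equal values. Of the 70 points, 56 have spots within 0.5 of each other, and the point at the bottom is clone 03a14 on replicate 4.

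Sorted by source plate, the clones of plate 02 stood lower than the others, with an overlap through 14o09 and 03a14. The mean of the 6 clones of plate 02 was -0.63, -0.43, -0.69, -0.43 and -0.51 on replicates 1 to 5, or -0.54 ± 0.12 (SD, n = 5). The mean of the 8 clones of plates 03, 14 and 53 was -0.11, -0.02, -0.19, -0.25 and -0.36, or -0.19 ± 0.13, and without 03a14 it was -0.15 ± 0.16. The difference was below 0 on all 5 arrays, at -0.52, -0.40, -0.51, -0.18 and -0.15, with a mean of -0.35 ± 0.18, or -0.39 ± 0.15 without 03a14.

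The clones of plate 02 were below 0 in 29 of 30 values and the others in 25 of 40, or 23 of 35 without 03a14. Of the 6 clones of plate 02, 5 were below 0 on all 5 arrays, where 50% of all clones of that plate were, and 3 were called lower, where 24.5% of the plate were. Of the 8 other clones, 1, on plate 14, was below 0 on all 5 arrays. The shares of all clones below 0 on all arrays were 9.38% on plate 03, 5.39% on plate 14, 4.96% on plate 53 and 3.93% over all plates other than 02 and 04. Limma called 0 of the 8 clones lower, with 1 at an unadjusted p under 0.05, where 3.05% of all clones off plates 02 and 04 were. The share called lower was 0% on each of plates 03, 14 and 53 and 0.041% over all plates other than 02 and 04.

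The named gene did not separate the plates, since bactin1 clones stood on both sides. The 4 bactin1 clones of plate 02 had means of -0.67 to -0.38 and the 5 of plate 03 of -0.46 to 0.10, or -0.17 to 0.10 without 03a14. Which part of the transcript each clone holds is not given in the files.

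The clones of plate 02 as a whole, whatever their gene, were shifted to lower ratios. The median log2 ratio of its 384 tested clones was -0.40, -0.41, -0.53, -0.15 and -0.25 on replicates 1 to 5, or -0.35 ± 0.15 (SD, n = 5). The medians of plates 03, 14 and 53 were -0.04 ± 0.04, 0.01 ± 0.03 and 0.00 ± 0.01. Plate 02 was printed in spot rows 18 and 19, the last of each block, and plate 03 in rows 17 and 18. Of the 130 clones called lower on the arrays, 94 came from plate 02 and 33 from plate 04, whose median was -0.20 ± 0.08. Taking the median of each plate off its clones removes 1 value per plate and array. A shift that differs between parts of a plate would stay in the centred values in part. How even the shift was within plate 02 was not tested.

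**Figure D4:**
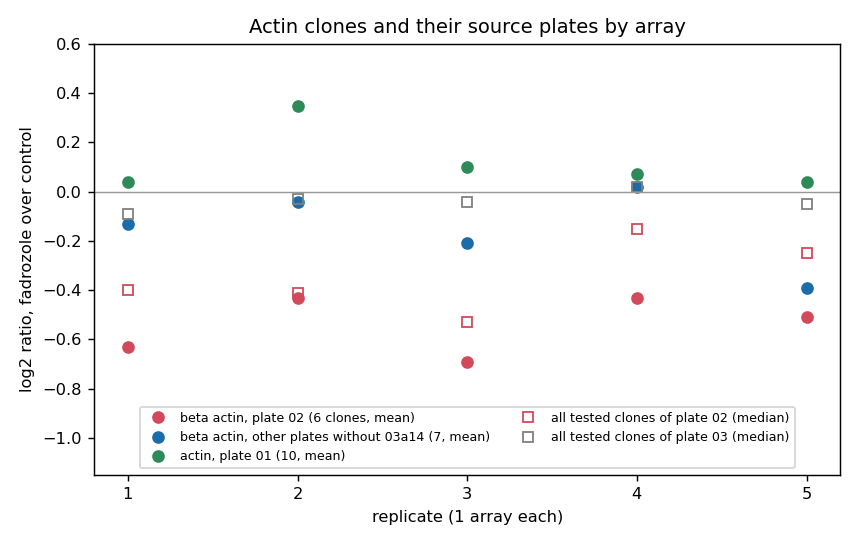
Mean log2 ratio of fadrozole over control on each of 5 arrays for beta actin clones of plate 02, of the other plates without 03a14 and for actin clones of plate 01, as filled circles, with the median of all tested clones of plates 02 and 03 as open squares. The beta actin clones of plate 02 stand at -0.27 to -0.02 against the median of their plate.

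Against the median of their own plate, the beta actin clones of plate 02 stood at -0.23, -0.02, -0.16, -0.27 and -0.26, with a mean of -0.19 ± 0.11 (SD, n = 5). All 6 had a mean below that of their plate, from -0.32 for 02k04 to -0.03 for 02c09. The 4 clones of plate 03 other than 03a14 stood at -0.03 ± 0.09, the 2 of plate 14 at -0.34 ± 0.23, and 53g07 at -0.11 ± 0.27. The difference between plate 02 and the other plates, -0.35 as measured, was -0.02 ± 0.10 once each plate was centred. That value includes 03a14. Without it, the clones of the other plates stood at -0.13 ± 0.15 against the medians of their plates, beside -0.19 ± 0.11 for plate 02.

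Over all 14 clones the plate-centred mean was -0.13, -0.02, -0.16, -0.27 and -0.30, or -0.18 ± 0.12 (SD, n = 5), below 0 on all 5 arrays, and 13 of 14 clones lay below the median of their plate. Without 03a14 it was -0.16 ± 0.10, with 12 of 13 clones below. Without plate 02 and 03a14 it was -0.13 ± 0.15, an SD larger than the mean, with 6 of 7 clones below. No clone on the arrays was called in either direction by limma after centring.

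Within their plates the clones took very different places. Of the clones of plate 14, 0.599% were lower than 14o09. Of the clones of plate 02, 6.25% were lower than 02k04 and 6.51% lower than 02c06, while 43.5% were lower than 02c09. On plate 03, 03a14 was the lowest clone through its 1 spot, 14.3% of clones were lower than 03d23 and 13.8% lower than 03o22, and 86.5% were lower than 03p22. The 3 called clones were thus not the farthest from their plate, and 14o09, which was not called, was farther.

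Another 10 clones, on plate 01, bear the bare name actin, and their names do not say which actin they hold. Their mean was 0.04, 0.35, 0.10, 0.07 and 0.04 on replicates 1 to 5, or 0.12 ± 0.13 (SD, n = 5), above 0 on all arrays, while the beta actin mean was below 0 on all arrays. In either channel, 0 of these 10 clones had both spots above the level of empty spots on all 5 arrays. Among the 14 beta actin clones, 6 did in the control channel and 3 in the fadrozole channel. Of the 50 values of the plate 01 clones, 16 lay below 0. On all 5 arrays, 2 of the 10 clones, or 20%, were above 0, where 7.14% of all tested clones were. Clone 01m15 read 0.53, 0.55, 0.35, 0.28 and 0.29 and was called higher by limma, at 0.40 ± 0.13 (adjusted p = 0.0412, n = 5). It was the 1 called clone of the 10, or 10%, where 0.421% of all tested clones were called higher. Of the 10 clones, 0 were called lower. With plates centred or without plates 02 and 04, no clone on the arrays was called higher. The 10 clones are all the tested clones of plate 01, so no shift of that plate could be measured apart from them.

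Among actin regulators, 34 clones were tested, of which 1 was called lower and 0 higher, where 1.61% and 0.421% of all tested clones were. At an unadjusted p under 0.05 there were 3 lower and 1 higher, where 8.06% and 6.29% of all tested clones were. All but 02e24 of the 34 clones lay off plates 02 and 04. Of all clones off these plates, 0.041% were called lower, and 3.05% were lower and 6.87% higher at an unadjusted p under 0.05. The median regulator clone stood at 0.03. The called clone, 29d19, named F-actin capping protein beta subunit, which covers the fast-growing end of a filament, stood at -0.44 ± 0.16 and fell on all 5 arrays (limma, adjusted p = 0.0374). A second clone of the same name, 29d14, stood at -0.08 ± 0.19, and another clone of the beta subunit, 14d03, at -0.06 ± 0.05. Clones 40e12 and 59a17 of the capping protein alpha-1 subunit stood at 0.16 ± 0.18 and 0.12 ± 0.12. None of these was called. With plates centred or without plates 02 and 04, no clone on the arrays was called lower, so 29d19 was not either. Cofilin, which severs filaments, read -0.40 ± 0.26 in clone 02e24 on plate 02 (adjusted p = 0.0892) and -0.34 ± 0.31 in clone 28l06 (adjusted p = 0.205). Of the ARP2/3 complex, which starts branches, a clone of subunit 4, 29b09, read 0.27 ± 0.20 (adjusted p = 0.191), a second clone of subunit 4, 60j10, read 0.04 ± 0.27, and the 7 clones of subunits 1B and 3 ran from -0.05 to 0.10. The 33 regulator clones off plates 02 and 04 had a mean of 0.02 ± 0.04 over the arrays.

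The skeletal alpha-actins, the muscle relatives of beta actin, had 6 clones, none on plate 02 or 04, and limma called 0 of them. At an unadjusted p under 0.05 there were 3 lower and 1 higher, where 3.05% and 6.87% of all clones off plates 02 and 04 were. The mean of the 6 clones was -0.15 ± 0.08 (SD, n = 5), below 0 on all 5 arrays, near the -0.15 ± 0.16 of the beta actin clones off plate 02 without 03a14. The nearest to a call was 26b14, at -0.34 ± 0.16 (adjusted p = 0.0799), and 29n15 went the other way, at 0.35 ± 0.23 (adjusted p = 0.12). In the control channel, 1 of the 6 clones had both spots above the level of empty spots on all 5 arrays and 1 on none. Of 82 clones of muscle genes in all, 14 had both spots above it on all arrays and 35 on none, their mean ratio was 0.01 ± 0.04 and 0 were called. The part of muscle actin transcripts in the signal of beta actin clones was not tested.

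The tubulins, the subunits of microtubules, had 36 tested clones. Limma called 3 lower, all on plate 02, where it called 24.5% of all clones lower, and 0 higher. At an unadjusted p under 0.05 there were 13 lower and 0 higher, where 8.06% and 6.29% of all tested clones were. On plate 02, 64.8% of all clones were lower at that level, and off plates 02 and 04, 3.05% were. The 13 lay both on plate 02 and off plates 02 and 04. Those off these plates, among 29 tubulin clones there, were 58k16 at -0.25 ± 0.06, 39h05 at -0.24 ± 0.04, 20e09, 13f14, 03h13, 52k05 and 23g20. Their means ran from -0.28 to -0.18. Clones 02d05 and 02k03, both of tubulin beta 2, fell to -0.68 ± 0.16 (adjusted p = 0.0152) and -0.65 ± 0.28 (adjusted p = 0.0224), and 02m12, named for the tubulin family, fell to -0.55 ± 0.10 (adjusted p = 0.0152). Other clones named tubb2, for tubulin beta 2, were not called. On plate 02 they were 02l06 at -0.35 ± 0.14 and 02d03 at -0.02 ± 0.35, and on plate 03 03a10 at -0.07 ± 0.11. The 7 tubulin clones of plates 02 and 04 had a mean of -0.40 ± 0.18 and the 29 others of -0.10 ± 0.03, with 0 called.

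Other genes in common use as references, 32 clones of such genes as GAPDH, ef1a and ribosomal protein L8, had a mean of -0.05 ± 0.06. Limma called 1 of them lower and 0 higher, where it called 1.61% and 0.421% of all tested clones. At an unadjusted p under 0.05 there were 7 lower and 3 higher, where 8.06% and 6.29% of all tested clones were. The lower clones other than 03e24 lay on plate 02, where 64.8% of all clones were lower at that level. The 3 higher clones, 39o02, 23f06 and 22n13, lay off plates 02 and 04, where 6.87% of all clones were higher and 3.05% lower. The called reference clone was 02m02, GAPDH, a glycolytic enzyme, at -0.45 ± 0.19 (adjusted p = 0.0403). It lies on plate 02, where 24.5% of all clones were called lower. The 8 reference clones of plates 02 and 04 had a mean of -0.32 ± 0.17 and the 24 others of 0.04 ± 0.04. Beta actin, the tubulins and the reference genes thus each stood lower on plate 02 or 04 than elsewhere.

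**Figure D5:**
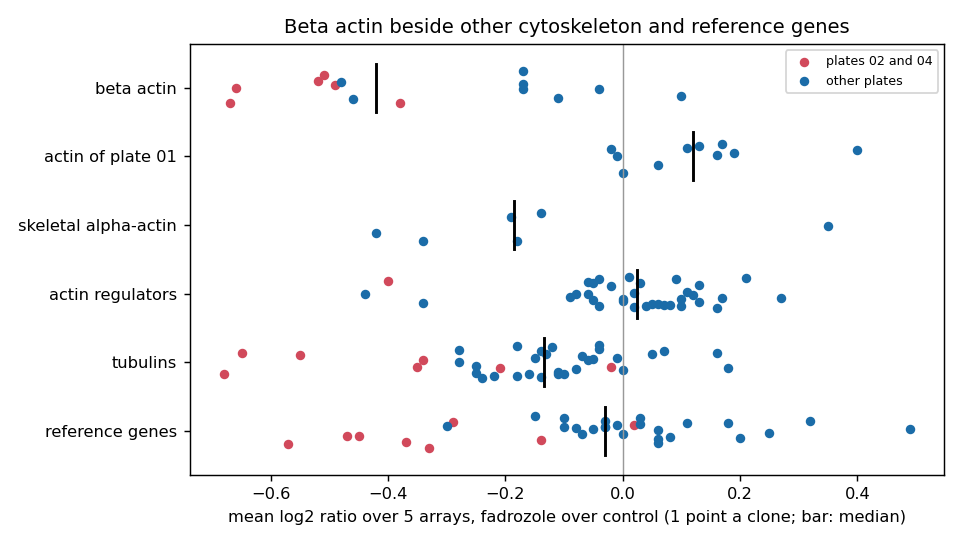
Mean log2 ratio of fadrozole over control over 5 arrays, 1 point per clone, for beta actin and 5 other groups of genes, with clones of plates 02 and 04 in red, clones of other plates in blue and the median of each group as a bar. The median is -0.42 for beta actin, -0.19 for skeletal alpha-actin, -0.14 for tubulins and -0.03 for reference genes. The groups hold unlike shares of clones of plates 02 and 04, and skeletal alpha-actin holds none. Off those plates the median is -0.17 for beta actin, -0.11 for tubulins and 0.01 for reference genes.

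The described clones whose 5 ratios came nearest to the mean of the plate 02 beta actins, by the root mean square difference over the 5 arrays among 3370 candidates, all came from plate 02. They were gpia, glucose phosphate isomerase a (02m13, difference 0.09, ratio -0.56 ± 0.11), aldolase C (02m03, 0.12, -0.57 ± 0.14), EPD-II, an ependymin (02n19, 0.13, -0.62 ± 0.21), secretogranin II (02j04, 0.14, -0.48 ± 0.20) and GAPDH (02m02, 0.14, -0.45 ± 0.19). For the beta actins of the other plates the ranking rested on 03a14, and 0 of the 5 nearest clones were shared with and without it in the mean. With it, they were skeletal alpha-actin (40d24, difference 0.04, ratio -0.19 ± 0.13), parvalbumin (14g06, 0.05), the translation factor eIF1A (30f04, 0.05), a clone similar to a companion of mTOR (58b12, 0.08) and a transposase (59d24, 0.08). Against the mean without it, these 5 stood at differences of 0.10 to 0.13. The nearest were then a catalytic subunit of protein phosphatase 2A (54a18, 0.04, ratio -0.17 ± 0.14), muscle creatine kinase (26m13, 0.05), a plasma membrane calcium ATPase (52d22, 0.08), apolipoprotein Eb (61e12, 0.08) and ribosomal protein L18a (24l23, 0.08). None of these 10 clones was called.

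The labelled tissue was checked against its markers in the control channel. Of 71 clones of brain markers, 20 had both spots above the level of empty spots on all 5 arrays and 19 on none. Of these 20, 18 were clones of ependymin, so the count rests mostly on 1 gene. The list also held clones of synaptotagmin, glutamine synthetase and GABA genes, which are not given singly here. Of 82 clones of muscle genes, 14 did on all arrays and 35 on none, and the share over all clones was not counted. The mean ratio of the 69 tested clones of brain markers was -0.21 ± 0.13 (SD, n = 5), from -0.34 to -0.02 over the arrays, and limma called 8 lower and 0 higher. All 8 lay among the 27 tested clones of plates 02 and 04, whose mean was -0.40 ± 0.22, and the 42 elsewhere had a mean of -0.08 ± 0.08. Of all tested clones, 94 of 384 on plate 02 and 33 of 384 on plate 04 were called lower. Of 33 clones of ependymin, an abundant brain glycoprotein of fish, 18 were above it on all arrays and 0 on none, with a mean ratio of -0.30 ± 0.26. All 3 clones of GFAP, an astroglial filament, were above it on no array, and of 9 clones of SNAP-25, a synaptic protein, 1 was above it on all arrays and 2 on none, with a mean ratio of -0.21 ± 0.05. Of 6 clones of synuclein, a presynaptic protein, 0 were above it on all arrays and 3 on none, with a mean ratio of -0.25 ± 0.09. Of 3 clones of aromatase, the enzyme that fadrozole inhibits, 1 was above it on all arrays and 2 on none, with a mean ratio of 0.08 ± 0.15. Of 4 hemoglobin clones, which would mark blood, 0 were above it on all arrays and 2 on none, and their mean ratio ran from -0.37 to 0.12 over the arrays. The words used for pituitary markers matched 1 clone, growth hormone (02c08). It had ratios of -0.63 to -0.14, with a mean of -0.33 ± 0.18, and was not called. It lies on plate 02, whose median was -0.35 ± 0.15. Other pituitary hormone names lay outside these words, such as GTH-II (02g17, on plate 02) at -0.38 ± 0.32. Thyrotropin beta subunit (03k06, on plate 03) stood at 0.05 ± 0.22, and neither was called. The part of any of these cell types in the beta actin values was not tested.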

How the data were processed

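Telencephalon RNA was measured on 5 two-colour cDNA arrays of 17328 spots. Per the file headers, the deposited intensity values are linear scanner units from adaptive quantification, 1 per spot and channel, not background subtracted. The authors' deposited processed values are treated as a score, since their log base and scaling are not stated. Against ratios made here from the same spots they correlated at -0.9961 to -0.9999, so they run as control over fadrozole, and the sign was reversed before use. The medians of their 5 columns were -0.00846, -0.004313, -0.03873, -0.02326 and 0.0363.

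In limma 3.58.1 (R 4.3.3, statmod 1.5.0), background was corrected by normexp with an offset of 50, which draws the ratios of dim spots toward 0. Each array was normalized by loess with a span of 0.3, and both spots of a clone were then averaged. Zero weight went to control and empty spots and to the 0 to 29 spots per array that the scanner software had marked ignored. Clones entered the test if, on 3 or more arrays, at least 0.5 of their usable spots stood over 2 SDs of the local background above it in 1 channel or both. Of 8099 clones, 8078 did. Limma's two-sided moderated test set the mean log2 ratio against 0, with 4 residual and 5.24 prior degrees of freedom. Its p-values were adjusted over all tested clones by Benjamini-Hochberg, and a clone was called at an adjusted p under 0.05. That the 5 exposed groups are separate fish is per the labels. The number of arrays limits the precision.

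The beta actin clones and the gene lists were chosen with earlier results of these data known, and words that matched a wrong gene were dropped by name alone. The result of 1 of the lists is not reported here. Clones were named in the text by a rule: every beta actin clone, and of each list the called clones (up to 4) or else the one with the smallest p. Some further clones beyond it were chosen after their values were seen. The 5 clones nearest to each set of beta actins were ranked by root mean square difference. The median of a source plate was taken over its tested clones, and plates with at least 20 were centred. The scans were made on 1 day, and the image of replicate 1 was quantified on a different day from those of replicates 2 to 5. The alternatives listed in the closing section were run with the rest unchanged. The pipeline was also run on simulated data that held no shift of a source plate, so that run does not bear on the shift of plate 02. No sequences or genome positions were used here.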

Additional observations from a re-analysis of the deposited data

Results flagged for a closer look

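In each of 19 sets of 5 array values (the 14 clones and 5 means over groups of clones), the highest or lowest value was set against the rest by Dixon's ratio of gap to range, with a critical value of 0.71 for 5 samples. Chance flags about 1 set in 20, and 2 of the 19 were found. Clone 03a14, named bactin1, read -2.18 on replicate 4, with its other arrays between -0.21 and 0.08 and a ratio of 0.872. The mean of the 10 actin clones of plate 01 was 0.35 on replicate 2, with its other arrays between 0.04 and 0.10 and a ratio of 0.795.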

How the results depend on the processing

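The beta actin mean of -0.34 was -0.18 with each source plate centred and -0.19 without plates 02 and 04. It stayed between -0.35 and -0.33 in every other setting run on the ratios made here, and between -0.37 and -0.32 with 1 array left out. In the authors' values, whose scaling is not stated, it was -0.27. On plate 02 the mean of -0.54 was -0.19 with plates centred (-0.57 to -0.50 with 1 array left out). Elsewhere, -0.19 stayed between -0.20 and -0.15 (-0.23 to -0.14 with 1 array left out). The difference of -0.35 was -0.02 with plates centred (-0.40 to -0.31 with 1 array left out), and without plates 02 and 04 it has no value. Leaving out 03a14, chosen after its values were seen, gave -0.33, -0.15 elsewhere and a difference of -0.39.

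The 3 beta actin clones called lower were 0 without background subtraction, with plain subtraction, in the authors' values, with plates centred and without plates 02 and 04. They were 5 with print-tip loess, an intensity trend or array weights, and 6 with both channels above background (13 clones tested) or the quantification day as a random block. With 1 array left out there were 0 to 3, with 0 without replicate 1, 2 or 3. Calls higher stayed at 0 in every setting run. Over all clones, 130 lower and 34 higher became 0 and 0 without background subtraction, with plain subtraction, in the authors' values, with plates centred and without plates 02 and 04, where limma had 1187, 1042, 1124, 910 and 741 clones at an unadjusted p under 0.05. They became 76 and 16 with scale normalization, and 0 to 153 lower and 0 to 21 higher with 1 array left out. With both channels above background only 3195 clones were tested, against 8078 in the main setting, and 220 were called lower and 143 higher. The cause was not tested. No paired analysis was possible because each array holds its own exposed group against the same pool, and no other group shares a replicate number.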
